A study of Mus musculus with 3 samples.

Results

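The comparison set cells that stayed negative for the surface receptor Flk1 after induction of the transcription factor Snail against Flk1- cells of an untreated culture of the same line. Members are all genes of the array with 1 named probe set or more and a signal above the floor described below, which gave 13969 measured genes of 18193, from 2 of the 3 arrays of the series. The cells were A2.snail, a mouse embryonic stem cell line that makes Snail when given doxycycline, grown as embryoid bodies (floating aggregates of differentiating cells) in 10% fetal calf serum with the Wnt inhibitor DKK1. In the Snail-induced culture doxycycline was added at 250 ng/mL on day 2, and the untreated culture received 0 ng/mL. By the sample titles and the series' design both were sorted for Flk1 at day 3, although the source label of the untreated sample names no sort. RNA of each was hybridised to 1 array. The remaining array holds the Flk1+ cells of the induced culture. Where 3 intensities are given for a gene, they stand in the order untreated Flk1-, induced Flk1- and induced Flk1+.

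Each side was 1 culture and 1 array, so no difference has a replicate error or a test, and differences describe these arrays. Snail and doxycycline came together in every induced sample and cannot be told apart, since no line without the transgene was treated. The samples are bulk RNA, in which more cells of a kind and more RNA per cell cannot be told apart. Differences are on the log2 scale after adding 9.53, the 20th percentile of all values, to each intensity, and folds are on that same scale. A value under 25.6, the 40th percentile, lies under the floor. Where the dimmer value lies there, the floor takes its place, on the same scale, and the fold is written as "at least". "Higher" and "lower" mean at least 2-fold in induced over untreated Flk1- cells unless a value shows otherwise. That limit was applied to the difference before the floor took the place of any value. A counted gene with a dim value can therefore have an "at least" fold under 2, as Tmem125 (1.27) and Wnt10a (1.05) do. The array medians were close, at intensities of 42.7, 42.4 and 44.6. Kdr, which encodes Flk1, read 10.5 in untreated and 9.73 in induced Flk1- cells, both under the floor, against 404 in Flk1+ cells. The probe set of Snai1, the gene for Snail, read 29.1, 13.1 and 19.8 and did not show the induction, and no label says whether it can read the transgene's transcript.

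Snail is a zinc-finger repressor that drives epithelial-to-mesenchymal transition, in which cells lose tight and adherens junctions and apical polarity and gain matrix, mesenchymal cadherins and motility. It binds the E-box CAGGTG in promoters of epithelial genes and recruits corepressors there. In the embryo it acts during gastrulation, when epiblast cells leave an epithelium to form mesoderm, some of which becomes positive for Flk1. The promoters of Crb3, a subunit of the apical Crumbs complex, and Spint2, an inhibitor of membrane serine proteases of epithelia, show what such windows look like among the genes that were lower. They are printed because both genes were lower on 2 probe sets and carry 3 E-boxes in the 250 bases before the start. The bases are those before the start in RefSeq's GRCm38.p6, 5′ to 3′ on the gene's strand, with CAGGTG and its reverse complement CACCTG in capitals.
Crb3: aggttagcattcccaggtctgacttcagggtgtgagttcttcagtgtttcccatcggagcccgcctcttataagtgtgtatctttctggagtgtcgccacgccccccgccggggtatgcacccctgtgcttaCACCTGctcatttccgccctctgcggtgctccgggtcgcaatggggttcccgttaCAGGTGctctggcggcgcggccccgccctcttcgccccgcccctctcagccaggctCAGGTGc
Spint2: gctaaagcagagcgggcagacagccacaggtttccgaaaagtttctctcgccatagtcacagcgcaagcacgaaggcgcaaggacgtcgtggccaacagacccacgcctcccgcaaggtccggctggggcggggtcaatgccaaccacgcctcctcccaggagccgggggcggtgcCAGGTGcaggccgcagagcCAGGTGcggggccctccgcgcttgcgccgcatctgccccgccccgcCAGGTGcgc
The Crb3 stretch is chr17:57061951-57062200 on the plus strand, with E-boxes beginning at -118, -63 and -7 from the first transcribed base. The Spint2 stretch is chr7:29281978-29282227 on the minus strand, with E-boxes beginning at -74, -55 and -9.

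In induced Flk1- cells 412 genes were higher, 2.95% of those measured, and 283 were lower, 2.03%, which together made 4.98%. When each array was centred on its median over measured genes, which moved the median difference from 0.04 to -0.06, the balance turned to 314 higher and 398 lower. The median over all measured genes was 0.04, the 5th and 95th percentiles were -0.73 and 0.78, and 83.7% of genes lay within 1.5-fold. Large differences were mostly upward: 42 genes were past 4-fold higher and 5 past 8-fold, against 8 and 1 lower. Of the 412 higher genes, 271 were above the floor on both arrays, 131 had only their induced value above it and 10 were under it on both. Of the 283 lower genes, 169 were above it on both, 106 only when untreated and 8 on neither. The higher genes had a median brighter value of 144 and the lower genes one of 109.

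**Figure D1:**
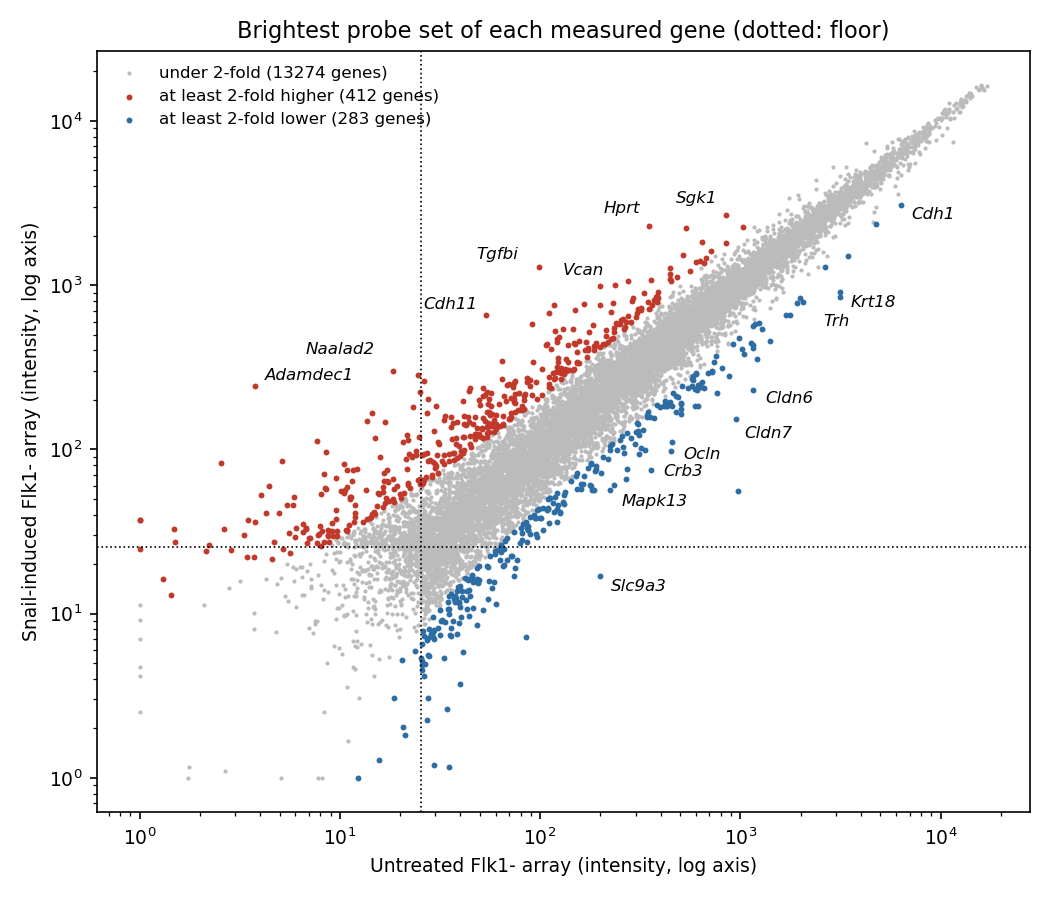
Intensity of each measured gene in untreated Flk1- cells (horizontal, log scale) and in Snail-induced Flk1- cells (vertical, log scale), 1 point per gene, with the 412 higher and 283 lower genes coloured. Most points lie near the diagonal, Tgfbi (98.3 to 1287) stands far above it, and Trh (3135 to 843) and Krt18 (3152 to 904) lie below it among bright genes.

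The share of genes past 2-fold depended on brightness. Among the dimmest of 5 equal groups of genes, 4.83% were higher and 4.19% lower, and the differences had an SD over genes of 0.61. In the next group 5.23% were higher and 2.47% lower. In the brightest group 0.251% were higher and 0.394% lower, and the SD over genes was 0.24. A 2-fold difference was thus more often met among dim genes than among bright ones. The list counts below stand beside these shares and the 2.95% and 2.03% over all genes.

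A second probe set, which reads other bases of the same gene on the same arrays, gives a check of the probe and not of the culture. Of the 184 higher genes with a second measured probe set, 156 (84.8%) had the same sign on it and 82 (44.6%) were past 2-fold on it too. Of the 86 such lower genes, 72 (83.7%) had the same sign and 30 (34.9%) were past 2-fold. Among the 6222 genes past neither limit, 68.4% had the same sign on both.

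The 15 largest differences higher on 2 probe sets were led by Tgfbi, a secreted matrix protein that binds collagen and integrins. Tgfbi read 98.3 untreated, 1287 induced Flk1- and 2459 induced Flk1+, a 12-fold difference, and its second probe set went from 74.4 to 1125. Col5a2, a fibrillar collagen chain, read 24.5, 285 and 464, at least 8.40-fold, with a log2 difference of 3.60 on its second probe set. Mef2c, a transcription factor of cardiac and vascular mesoderm, read 2.55, 82.7 and 621, at least 2.63-fold. Each of these genes was low only in untreated cells. Fat4, an atypical cadherin of planar polarity, read 26.3, 259 and 438 (7.49-fold). Ets1, a transcription factor of mesenchyme and endothelium, read 117, 758 and 3106 (6.04-fold), with 2.60 on its 2 brightest probe sets and at least 1.16 on the others. Eya1, a transcriptional coactivator of head and kidney mesenchyme, read 91.4, 580 and 996 (5.84-fold). Ets1 and Eya1 were thus several-fold higher in induced cells sorted as Flk1-. Ncam1, a neural cell adhesion molecule, read 111, 678 and 413 (5.70-fold), higher in induced Flk1- than in Flk1+ cells. The others were Pdgfra, Edil3, Igfbp4, Emilin1, Elk3, Ghr, Car3 and Vcan, with folds from 4.10 (Vcan) to 5.72 (Pdgfra).

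The 15 largest differences lower on 2 probe sets were led by Crb3 and Ocln. Crb3 read 359 untreated, 74.7 induced Flk1- and 32.8 induced Flk1+ (4.38-fold lower), and its second probe set went from 433 to 68.4. Ocln, the tight junction protein occludin, read 451, 98.1 and 47.4 (4.28-fold lower). In both genes induced Flk1- cells lay between the other arrays. Slc40a1, the iron exporter ferroportin, read 234, 60.8 and 280 (3.46-fold lower), so that the induced Flk1- array alone was low. Podxl, an apical sialomucin, read 658, 237 and 147 (2.70-fold lower). Ezr, which ties apical membranes to actin, read 1696, 656 and 172 (2.56-fold lower). Fgf5, a growth factor of the primed epiblast, read 2058, 785 and 112 (2.60-fold lower). The others were Lgi2, Myl3, Pkp2, Svip, Syt11, Stk26, Arfgef3, H2-D1 and Cldn3, lower by 2.40-fold (Cldn3) to 3.16-fold (Lgi2), with Myl3, at 51.9, 10.6 and 22.4, under the floor once induced.

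**Figure D2:**
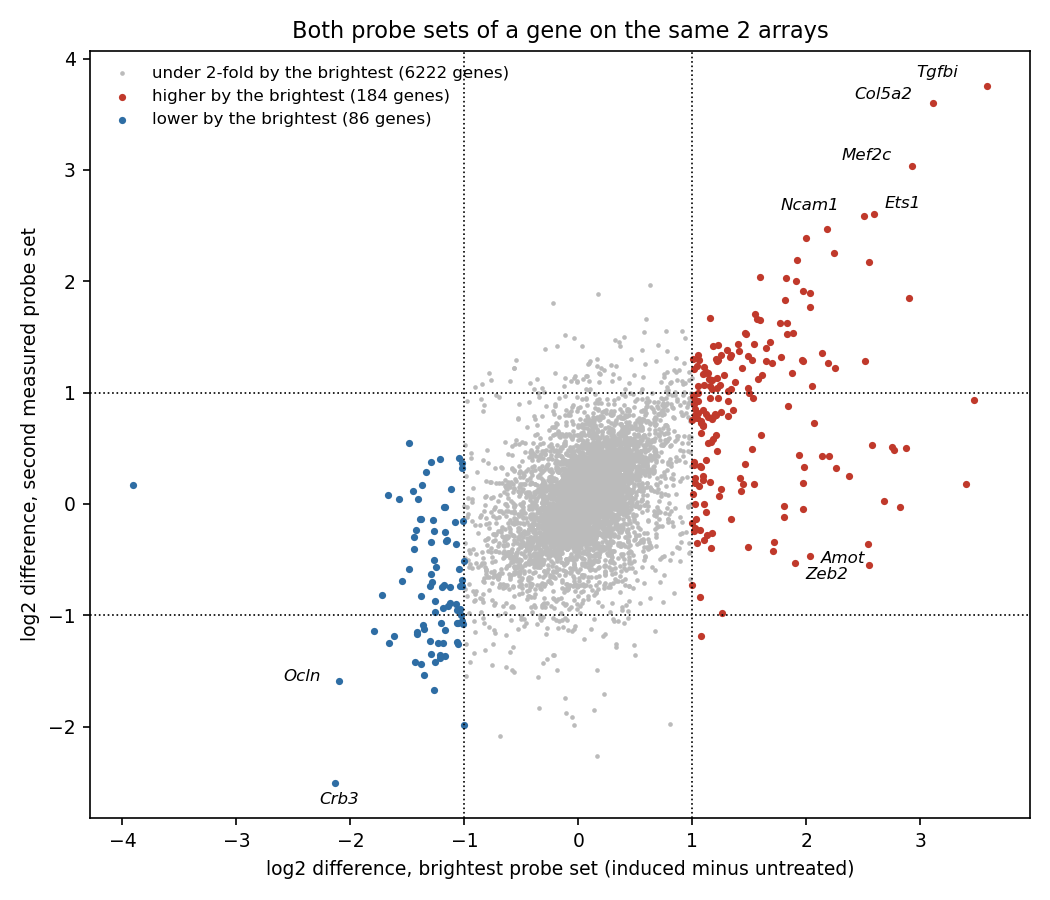
Log2 difference, induced minus untreated Flk1-, on the brightest probe set of a gene (horizontal) and on its second probe set (vertical), 1 point for each gene with both measured, coloured where past 2-fold on the brightest. Of 184 higher genes 156 lie above 0 on the vertical axis, and of 86 lower genes 72 lie below it. Tgfbi and Col5a2 are past 3 on both axes.

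Junction and epithelial genes differed in one direction. Of 140 measured genes on the 6 lists of tight junctions, adherens junctions and desmosomes, apical polarity, epithelial regulators, epithelial surface proteins and keratins, 37 were lower (26.4%) and 0 higher, beside 2.03% and 2.95% over all genes. Their median was -0.38 against 0.04 over all genes, and 103 of the 140 lay below 0. Of the 37, 13 had a second probe set and 5 were past 2-fold on it. Reductions were often partial, and the brightest members kept signals far above the floor in induced Flk1- cells.

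Tight junctions seal the space between epithelial cells, and 7 of their 21 measured genes were lower and 0 higher, with a median of -0.58. Claudins form the strands. Cldn7 read 950 in untreated, 152 in induced Flk1- and 42 in induced Flk1+ cells, 5.93-fold lower between the Flk1- arrays. Cldn6 read 1151, 230 and 13.6 (4.85-fold lower). Marveld2, tricellulin, which seals corners where 3 cells meet, read 457, 111 and 45.7 (3.86-fold lower). In each the untreated array was highest and the Flk1+ array lowest. Cldn3 (327, 131 and 168), Cldn4 (175, 77.0 and 8.15) and the scaffold gene Tjp3 (104, 32.1 and 17.4) were 2.13-fold to 2.72-fold lower. The dimmer probe sets of Cldn3 read 13.3, 19.1 and 1 in Flk1+ cells, against 75.8, 39.4 and 1.07 in induced Flk1- cells. Tjp1, the scaffold ZO-1 that also serves adherens junctions, read 2012, 1801 and 4059, and F11r, an adhesion molecule of the same junctions, read 1067, 642 and 1386. Both lay within 2-fold between the Flk1- arrays and were highest in Flk1+ cells. These genes, and those below that lay within 2-fold, were chosen for naming with their values known.

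Of 23 adherens junction and desmosome genes 5 were lower and 0 higher, with a median of -0.37. Cdh1, E-cadherin, the best known target of Snail, read 6338 untreated, 3086 induced Flk1- and 624 induced Flk1+, 2.05-fold lower. It thus passed the limit narrowly and kept a bright signal in induced Flk1- cells. The desmosome genes Pkp2 (1038, 382 and 139), Dsg2 (421, 188 and 77.1) and Dsc2 (86.2, 33.4 and 17.1) were 2.67-fold, 2.18-fold and 2.23-fold lower. The second probe set of Dsg2 differed by -0.89. Vezt, a cadherin-catenin binding protein, read 85.7, 27.3 and 85.9, but its second probe set lay 0.17 the other way. Ctnnb1, beta-catenin, read 9659, 10412 and 11329 and was no lower.

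Apical polarity and epithelial trafficking had 6 lower and 0 higher of 32 genes, with a median of -0.21. After Crb3 the largest were Ap1m2, the epithelial clathrin adaptor that sorts basolateral cargo, at 311, 93.9 and 9.77 (3.09-fold lower), and Mal2, a transcytosis protein, at 85.2, 7.17 and 9.08 (at least 2.70-fold lower). Pard6b, a subunit of the Par polarity complex, read 643, 258 and 26.4 (2.44-fold lower). Rab25, an epithelial recycling GTPase, read 218, 87.7 and 80 (2.34-fold lower). Rab25 was as low in Flk1- as in Flk1+ induced cells, unlike Pard6b and Ap1m2.

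Epithelial surface proteins and kinases had the highest count, 13 lower and 0 higher of 33, with a median of -0.64. Mapk13, a p38 kinase of epithelia, read 268, 66.2 and 1 (3.67-fold lower). St14, the membrane protease matriptase, read 223, 56.8 and 18.3 (3.51-fold lower). Its inhibitors Spint1 (547, 235 and 91.4) and Spint2 (1992, 829 and 166) and the protease Prss8 (109, 42.8 and 3.23) were lower too, by 2.26-fold to 2.39-fold, and the second probe set of Spint2 went from 2027 to 755. The protease and both inhibitors were thus lower together. Erbb3, a neuregulin receptor, read 507, 164 and 13.8 (2.98-fold lower) on its brightest probe set, with 0.04 on the second. Epcam, a homophilic adhesion protein, read 2664, 1289 and 258 (2.06-fold lower). Bspry (121, 36.1 and 19.9), Ripk4 (507, 176 and 15.4), Tmem30b (637, 240 and 133), Grb7 (720, 301 and 30.7) and the hepatocyte growth factor receptor Met (302, 128 and 29.4) were 2.27-fold to 2.86-fold lower, and the last was Tmem125.

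Among 17 epithelial gene regulators 3 were lower and 0 higher, with a median of -0.32. Esrp1, which directs epithelial splicing, read 1215, 356 and 38.3 (3.35-fold lower), and Grhl1, a grainyhead factor, read 126, 41.8 and 20.1 (2.65-fold lower). Foxa1, an endoderm and epithelial pioneer factor, was dim at 46.4, 10.9 and 16.0. Grhl2 (372, 216 and 71.5) and Ovol2 (107, 55.9 and 73.7), both keepers of the epithelial state, differed by -0.76 and -0.83 and missed the limit, although the second probe set of Grhl2 differed by -1.45. Of 15 keratin and intermediate filament genes 3 were lower and 0 higher. Krt18 read 3152, 904 and 238 (3.46-fold lower), but Krt8, the keratin that pairs with it in filaments, read 625, 523 and 644. Of the pair, Krt18 alone was lower. Vim, the mesenchymal filament vimentin, read 3354, 5233 and 9821, a difference of 0.64 that missed the limit.

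**Figure D3:**
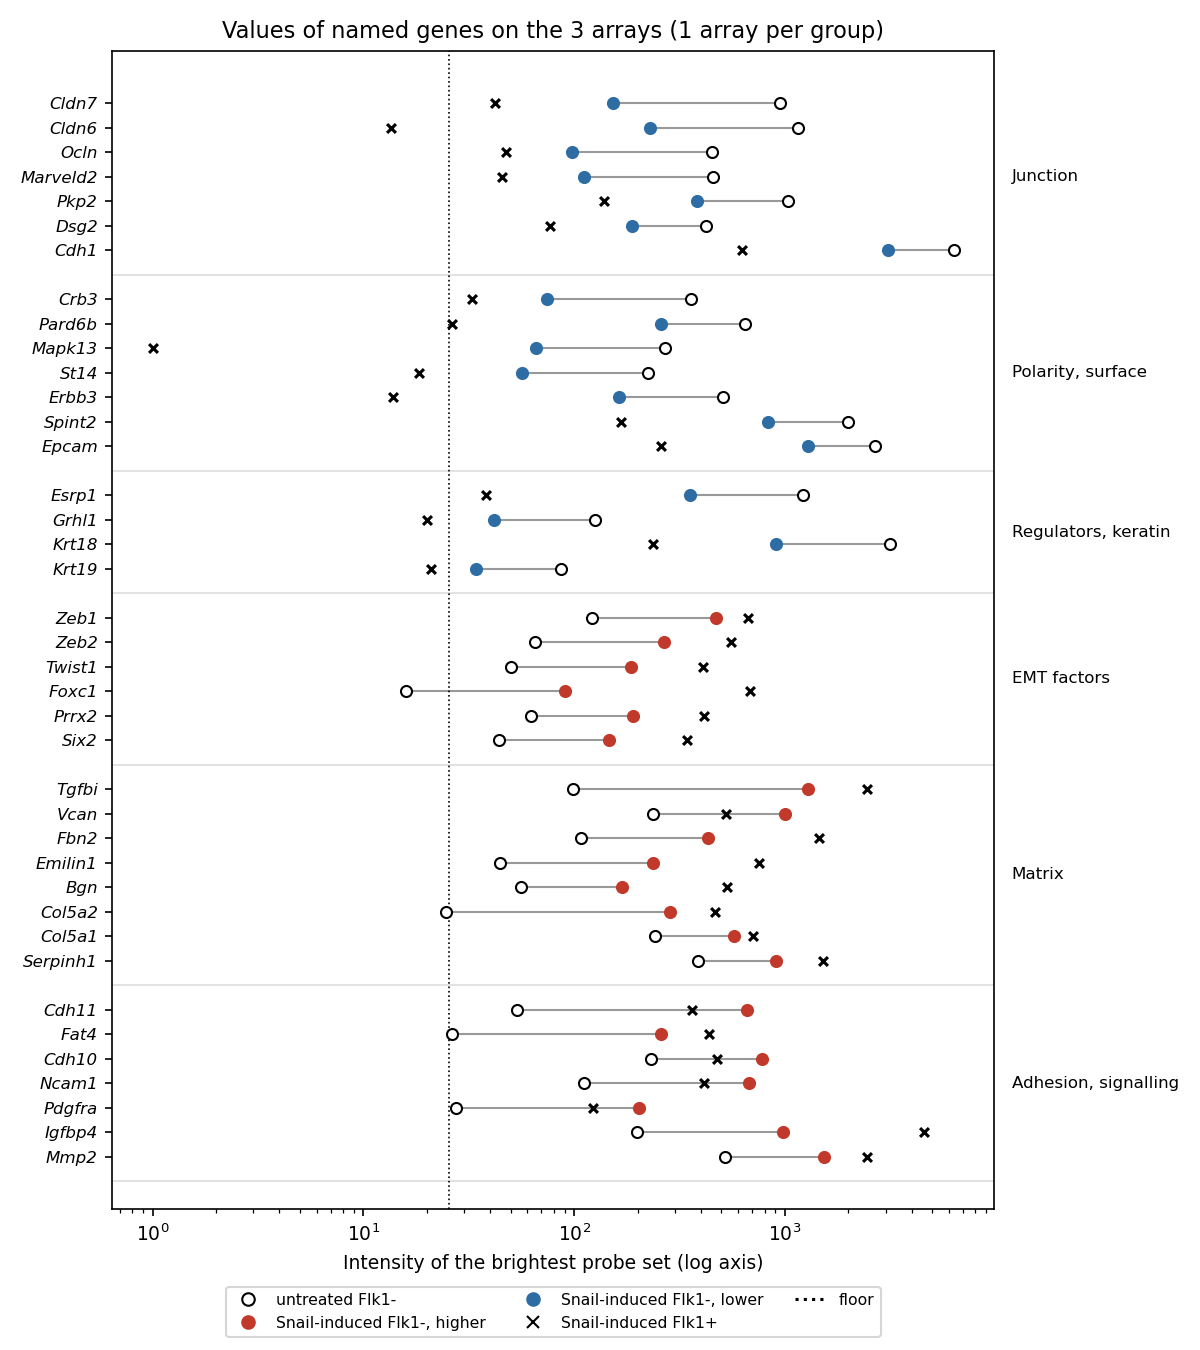
Intensity of the brightest probe set (log axis) of selected genes on 3 arrays: untreated Flk1- (open circle), Snail-induced Flk1- (filled circle) and Snail-induced Flk1+ (cross), with a dotted line at the floor of 25.6. For Cldn6, Cldn7, Crb3 and Esrp1 the induced Flk1- point lies between the other ones, as it does in the opposite direction for Tgfbi and Zeb1, while for Vcan, Cdh11 and Pdgfra it is the highest.

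E-boxes were counted in RefSeq windows from 250 bases before to 50 bases after each start, on both strands, for the 11207 measured genes with such a window. CAGGTG or CACCTG lay in a window of 101 of the 219 lower genes (46.1%), of 40 of the 291 higher genes (13.7%) and of 2463 of all (22.0%). By size of difference, the share was 61.3% of 31 genes lower by 1.5 log2 units or more, 43.6% of 188 between 1 and 1.5, 35.0% of 903 between 0.5 and 1, and 25.9% of 3869 lower by less. On the other side it was 17.0% of 5009 genes higher by under 0.5, 16.6% of 916, 14.9% of 202, and 11.2% of 89 higher by 1.5 or more. The share thus went down through all 8 classes from the most reduced to the most increased genes. At least 3 copies lay in a window of 9 lower genes (4.11%), 0 higher genes and 49 of all (0.437%).

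With the second brightest probe set standing for each gene, the share among the lower genes was 29.5%. Where both probe sets were past 2-fold it was 13 of 25 lower genes and 6 of 60 higher genes. Genes with a single window gave 44.8% of 172 lower, 9.42% of 223 higher and 18.4% of all 8943. The GC content of the windows was similar, with medians of 59.7% in lower, 61.0% in higher and 60.3% in all genes. Lower genes held the motif in 53.5% of cases at or above the median GC and 39.8% under it, against 22.1% and 21.8% of all genes. By brightness the share in lower genes ran from 34.1% in the dimmest group to 60.7% in the second brightest, against 17.3% to 26.6% of all genes over the 5 groups. The other 9 six-base motifs of the form CANNTG were held by 0.913% to 21.5% of lower genes and 2.26% to 18.3% of all, with CAGCTG at 21.5% of lower and 23.4% of higher genes. The motif is a description of these windows and does not show binding.

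**Figure D4:**
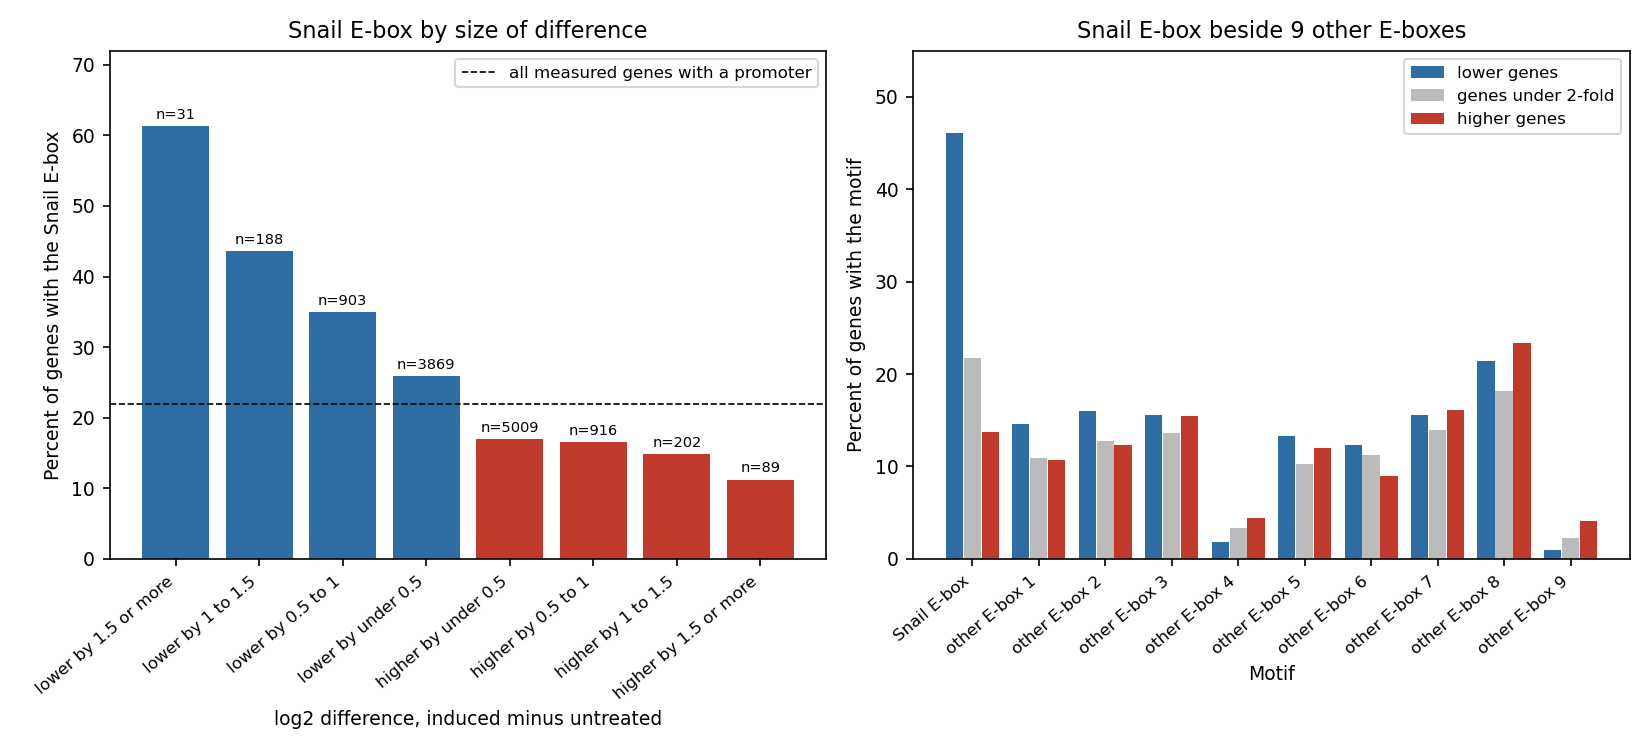
Left, percent of genes with CAGGTG or its reverse complement in a promoter window, in 8 classes of log2 difference with the number of genes above each bar and a dashed line at 22.0% for all genes; the bars go down from 61.3% to 11.2%. Right, percent of lower, higher and other genes that hold the Snail E-box and each of the 9 other motifs, with the widest gap at the Snail E-box (46.1% of lower and 13.7% of higher genes).

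On the junction and epithelial lists, 20 of the 25 lower genes with a window held the motif: Ap1m2, Bspry, Cldn3, Cldn4, Cldn6, Cldn7, Crb3, Epcam, Foxa1, Krt18, Krt7, Mapk13, Marveld2, Met, Ocln, Pard6b, Rab25, Spint2, Tjp3 and Tmem30b. Cdh1 and Esrp1 were not analysed here for the motif. Of the 69 genes on the same lists past neither limit, 29 (42.0%) held it. These lists were drawn up with the direction of epithelial genes known, so their count is no independent evidence of it.

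Of 21 transcription factors of epithelial-to-mesenchymal transition, Snai1 among them, 9 were higher and 0 lower, with a median of 0.57. In 7 of the 21 the difference lay below 0. Of the 9, Foxc1 and Zeb1 were past 2-fold on their second probe set too. Zeb1 and Zeb2 repress epithelial genes through the same kind of E-box. Zeb1 read 121 untreated, 471 induced Flk1- and 667 induced Flk1+ (3.68-fold), with a log2 difference of 1.17 on its second probe set. Zeb2 read 64.9, 268 and 557 (3.73-fold). Of its other probe sets, the second, at 167 and 113 on the Flk1- arrays, was the brighter when untreated and differed by -0.53. The dimmer ones differed by 0.72 and 1.29. Twist1 read 49.9, 186 and 410 (3.29-fold), and Twist2 read 22.1, 93.0 and 127 (at least 2.92-fold). Foxc1, a mesenchymal forkhead factor, read 15.9, 90.2 and 681 (at least 2.84-fold), and Gsc, a factor of the organizer, read 23.9, 92.1 and 102 (at least 2.90-fold). Prrx2 (62.7, 190 and 414), Six2 (44.2, 146 and 342) and Sox9 (8.02, 53.3 and 28) were the rest. Apart from Sox9 all were highest in Flk1+ cells and lowest in untreated cells. Snai2, the close relative Slug, read 48.6, 63.7 and 42.0 and did not reach 2-fold.

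Fibrillar collagens and the enzymes that process them were higher where they differed. Among 24 collagen genes 4 were higher and 0 lower, with a median of 0.13. Besides Col5a2 these were Col3a1 at 21.8, 122 and 191 (at least 3.75-fold), Col5a1 at 242, 576 and 709 (2.33-fold) and Col11a1 at 54.1, 118 and 130 (2.01-fold). The second probe set of Col3a1 differed by 0.73. Col1a2, the collagen I chain of connective tissue, read 76.7, 93.5 and 132 and stayed within the limit. Of 23 processing genes 3 were higher and 0 lower: Serpinh1, the collagen chaperone, at 386, 906 and 1516 (2.31-fold), Pcolce, which enhances procollagen cleavage, at 261, 621 and 495 (2.33-fold), and the prolyl hydroxylase P3h3.

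Matrix glycoproteins and proteoglycans had 13 higher and 0 lower of 42, with a median of 0.39. One of the 13, Hapln1, was under the floor on both Flk1- arrays. Emilin1, an elastic fibre protein, read 44.5, 237 and 752 (4.55-fold). Vcan, the large proteoglycan versican, read 236, 998 and 525 (4.10-fold), highest in induced Flk1- cells. Fbn2, a microfibril fibrillin, read 107, 433 and 1451 (3.78-fold). All 3 were past 2-fold on 2 probe sets. Has2, which makes hyaluronan, read 214, 487 and 1734 (2.23-fold), and the small proteoglycan Bgn read 55.8, 168 and 530 (2.72-fold), with 0.18 on its second probe set. Dcn, decorin, read 111, 276 and 58.6 (2.37-fold), and was the lowest in Flk1+ cells. Fbln2, Fbln5, Mfap4, Sparcl1 and the dim Srpx made up the rest with Tgfbi. Fn1, fibronectin, read 1367, 1640 and 6394, a difference of only 0.26 between the Flk1- arrays. The basement membrane list held 2 higher and 1 lower of 20. Nid1 read 306, 676 and 2485 (2.17-fold higher), with 0.39 on its second probe set. Lama4 read 12.2, 75.6 and 180 (at least 2.43-fold higher), with 0.19 on its second probe set. Lama5, the laminin chain of epithelial basement membranes, read 309, 143 and 58.3 (2.09-fold lower, with -1.07 on both probe sets). The 2 laminin chains thus differed in direction on their brightest probe sets.

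Genes of adhesion, the cytoskeleton and matrix turnover followed. Of 28 cadherins outside the E-cadherin junction 6 were higher and 0 lower, with a median of 0.38. Cdh11, a mesenchymal cadherin, read 53.5, 658 and 360 (10.6-fold), but its second probe set differed by only 0.18. Cdh10 read 232, 777 and 479 (3.26-fold) and had 1.27 on its second probe set. Dchs1, the ligand of Fat4, read 69.8, 251 and 484 (3.28-fold). Receptor and ligand were therefore both higher. Cdh2, N-cadherin, read 539, 797 and 1249 and missed the limit at 0.56. Integrins and adhesion adaptors had 4 higher and 0 lower of 29. Among them were Itga1, a collagen receptor chain, at 14.9, 118 and 594 (at least 3.63-fold), with 0.26 on its second probe set. Tgfb1i1, a focal adhesion adaptor, read 68.6, 247 and 669 (3.28-fold), while Itgb4 was under the floor on both Flk1- arrays. Glypicans and syndecans had 3 higher and 0 lower of 21, namely Sdc2 at 175, 414 and 292, Gpc6 at 207, 440 and 571, and Hs3st3a1, which was under the floor on both Flk1- arrays. Of 39 actin genes 3 were higher and 1 lower, with Flnc at 74.7, 191 and 267 (2.38-fold). Acta2, smooth muscle actin, read 205, 327 and 569 and stayed within the limit.

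Matrix proteases had 6 higher and 0 lower of 38. Mmp2, a gelatinase, read 518 untreated, 1527 induced Flk1- and 2438 induced Flk1+ (2.92-fold), with 1.43 on its second probe set. Adamdec1, a secreted relative of the Adam proteases, read 3.75, 242 and 156, at least 7.18-fold higher. Adam19 read 388, 839 and 1313 (2.14-fold), and Adamts20 and Plat were dim. Mmp2 was the brightest of the group and the best supported.

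Adamdec1 was also among the genes whose brightest probe set came up from under the floor. By that probe set, 14 genes lay under 25.6 when untreated and at an intensity of 102 or more, 4 times the floor, in induced Flk1- cells, and 12 of them had 1 sign on all their probe sets. The brightest of these were Naalad2 at 18.4, 300 and 737 (at least 8.82-fold), Col5a2, Adamdec1, Pknox2, Art5, Tril, Fli1, Col3a1, Gap43 and Itga1. The second probe set of Naalad2 differed by 0.93. Those of Pknox2 (33.2 untreated), Fli1 (43.6) and Tril (65.7) were above the floor in untreated cells already. In the other direction 1 gene qualified, the sodium-proton exchanger Slc9a3, at 200, 16.9 and 210. It was low on the induced Flk1- array alone.

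Growth factor receptors and their ligands were mixed, with 7 higher and 2 lower of 43 and a median of -0.02. Pdgfra, a receptor of early mesenchyme, read 27.5, 202 and 123 (5.72-fold), and Pdgfrb read 71.3, 204 and 181 (2.64-fold). Both were at least as bright in induced Flk1- as in Flk1+ cells. Angpt1, a ligand of the endothelial receptor Tie2, read 5.17, 84.6 and 168, with 0.03 on its second probe set, and Igf2 read 121, 449 and 3620 with -0.12 on its second. Those 2 calls thus rest on 1 probe set each. Ror2, a Wnt5a receptor, read 86.4, 270 and 225 (2.92-fold), with 0.18 on its second. Met, described above, and the dim Gfra3 were the 2 lower ones. Igfbp4, which binds insulin-like growth factors, was the 1 higher of its 9, at 200, 984 and 4542 (4.75-fold), with log2 differences of 2.25 and 2.26 on its 2 brightest probe sets.

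Guidance cues and receptors, which steer axons and migrating cells, had 7 higher and 3 lower of 56, with a median of 0.23. These were 12.5% and 5.36%, beside 2.95% and 2.03% over all genes. Of the ephrins and their receptors, 4 were higher. Efnb1 read 72.9, 240 and 292 (3.02-fold), Ephb1 read 41.9, 143 and 133 (2.96-fold), Epha4 read 95.7, 257 and 45.5 (2.53-fold) and Epha7 read 138, 342 and 170 (2.38-fold). Efnb1, Epha4 and Epha7 were past 2-fold on 2 probe sets. Epha4 and Epha7 were highest in induced Flk1- cells. The 3 lower genes were semaphorins, but 2 semaphorins, Sema5a and Sema6d, were higher. Sema3c (163, 61.2 and 42.5), Sema3e (431, 184 and 152) and Sema4d (490, 207 and 67.4) were 2.27-fold to 2.44-fold lower. Sema5a read 63.0, 138 and 202, with 0.80 on its second probe set. Sema6d, at 23.2, 181 and 1187, was higher on its brightest probe set, but 2 others had the opposite sign.

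Among signalling pathways of early patterning, TGF-beta and Nodal genes had 3 higher (10%) and 0 lower of 30, beside 2.95% higher over all genes, led by the receptors Tgfbr2 (44.5, 121 and 587, 2.42-fold) and Tgfbr3 (41.5, 120 and 587, 2.53-fold), the latter with a second probe set at -0.14. BMP genes had 4 higher (13.8%) and 1 lower of 29 and a median of 0.30. Id1, a direct BMP target that blocks basic helix-loop-helix factors, read 169, 451 and 1802 (2.58-fold), and Id4 read 122, 316 and 766 (2.47-fold). Smad5, a transducer of BMP signals, read 445, 1167 and 1821 (2.59-fold) and had 1.09 on its second probe set. Wnt genes, in cultures that held DKK1 throughout, had 3 higher (7.14%) and 2 lower (4.76%) of 42 and a median of 0.01. The higher ones were the secreted Dkk3 (41.7, 98.8 and 90.2), Frzb (11.7, 74.3 and 156) and Rspo3 (16.9, 50.6 and 559). The second probe set of Dkk3 differed by 0.73 and that of Frzb by 0.33. The lower ones were the ligand Wnt10a, dim at 27.2, 6.86 and 22.9, and the receptor Fzd6 at 272, 126 and 27.5 (2.08-fold). FGF and ERK genes had 1 of each kind among 26: Fgf5 was lower, and Flrt3, a membrane regulator of FGF signals, read 75, 261 and 552 (3.20-fold higher). Notch genes had 0 past 2-fold of 24, with Rbpj, the pathway's DNA-binding factor, at 2043 on both Flk1- arrays. In the Hippo list Amot was the 1 of 24, and its second probe set lay 0.47 lower.

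Among patterning factors, Hox, Cdx and their partners had 3 higher (14.3%) and 2 lower (9.52%) of 21, beside 2.95% and 2.03% over all genes. All 3 higher were TALE homeodomain partners of Hox proteins: Pknox2 at 25.1, 223 and 248 (at least 6.63-fold), Meis1 at 16.6, 72.1 and 259 (at least 2.33-fold) and Meis2 at 43.8, 158 and 105 (3.14-fold). Meis2 had 1.40 on its second probe set and Pknox2 0.51. The 2 lower, Hoxa4 and Hoxa9, were dim. Neural and neural crest genes, among which Ets1 was listed, had 5 higher and 0 lower of 31. Zic1 read 125, 486 and 296 (3.69-fold), Irx3 read 41.8, 159 and 629 (3.29-fold) and Lhx2 read 56.9, 183 and 173 (2.89-fold). Zic1 was past 2-fold on 2 probe sets and highest in induced Flk1- cells. Streak and mesoderm genes had 3 higher and 0 lower of 30, namely Gsc, Mef2c and Isl1. Of these, Isl1, a factor of cardiac progenitors, read 41.1, 198 and 621 (4.10-fold), past 2-fold on its second probe set.

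Of 42 pluripotency genes, which mark embryonic stem cells and epiblast, 0 were higher and 2 lower, and the median was 0.17. Pou5f1 (Oct4) read 5224, 5963 and 3607, Sox2 read 5023, 5709 and 1683 and Nanog read 1767, 1584 and 203. All 3 were near their untreated level in induced Flk1- cells and lower in Flk1+ cells. The 2 that were lower were Fgf5 and the amino acid transporter Slc7a3, at 4768, 2338 and 306 (2.03-fold). Trh, a hormone precursor made by these stem cells, was also lower, at 3135, 843 and 91.1 (3.69-fold).

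Markers of cell types that the Flk1- gate could hold were compared as whole lists. Over all genes 2.95% were higher and 2.03% lower. Of 18 fibroblast markers 6 were higher and 0 lower, with a median of 0.80, and 6 lay below 0. Of the higher ones, Col3a1, Dcn, Mmp2, Pdgfrb and Twist2 were also counted on other lists above. Serpinf1 (51.9, 236 and 449, 4-fold) and Mmp2 were past 2-fold on 2 probe sets, while the fibroblast surface marker Thy1 read 159, 158 and 87.8. Of 36 endothelial markers 7 were higher and 0 lower, with a median of 0.29. Of the 7, only Ets1 was past 2-fold on its second probe set too. Fli1 read 16.8, 147 and 2632 (at least 4.47-fold), with 0.53 on its second probe set. Ecscr read 37.3, 95.6 and 1222 (2.24-fold). Aplnr (5.56, 30.9 and 991), Calcrl (5.93, 51.2 and 1277), Rhoj (6.54, 35.1 and 1204) and Sox18 (3.33, 30.2 and 1082) were close to the floor in induced Flk1- cells. The second probe set of Calcrl, at 58.7 and 56.4, was the brighter on both Flk1- arrays and differed by -0.049. That of Aplnr differed by 0.23. The induced Flk1- levels of these genes were far under the Flk1+ levels. How much Flk1+ cells left in the Flk1- sort contributed to them was not tested. Of 21 endoderm markers 3 were higher and 2 lower: Dab2 (168, 404 and 560), Pth1r (74.1, 253 and 297) and Rbp4 (56.8, 143 and 138) were 2.30-fold to 3.14-fold higher, while Lrp2, an endocytic receptor, was 2.32-fold lower at 572, 242 and 138 and Foxa1 was lower and dim. Of 19 hematopoietic markers 1 was higher and 1 lower, both with dim or disagreeing probe sets. Their median was -0.23, and 17 of the 19 lay below 0. Of 12 trophoblast markers 1 was higher and 1 lower. The higher one, Gata3, read 1.31 and 16.3, both under the floor, and counted as measured only through the Flk1+ array, at 197. What a shift in these cell types contributed to the differences above was not tested.

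**Figure D5:**
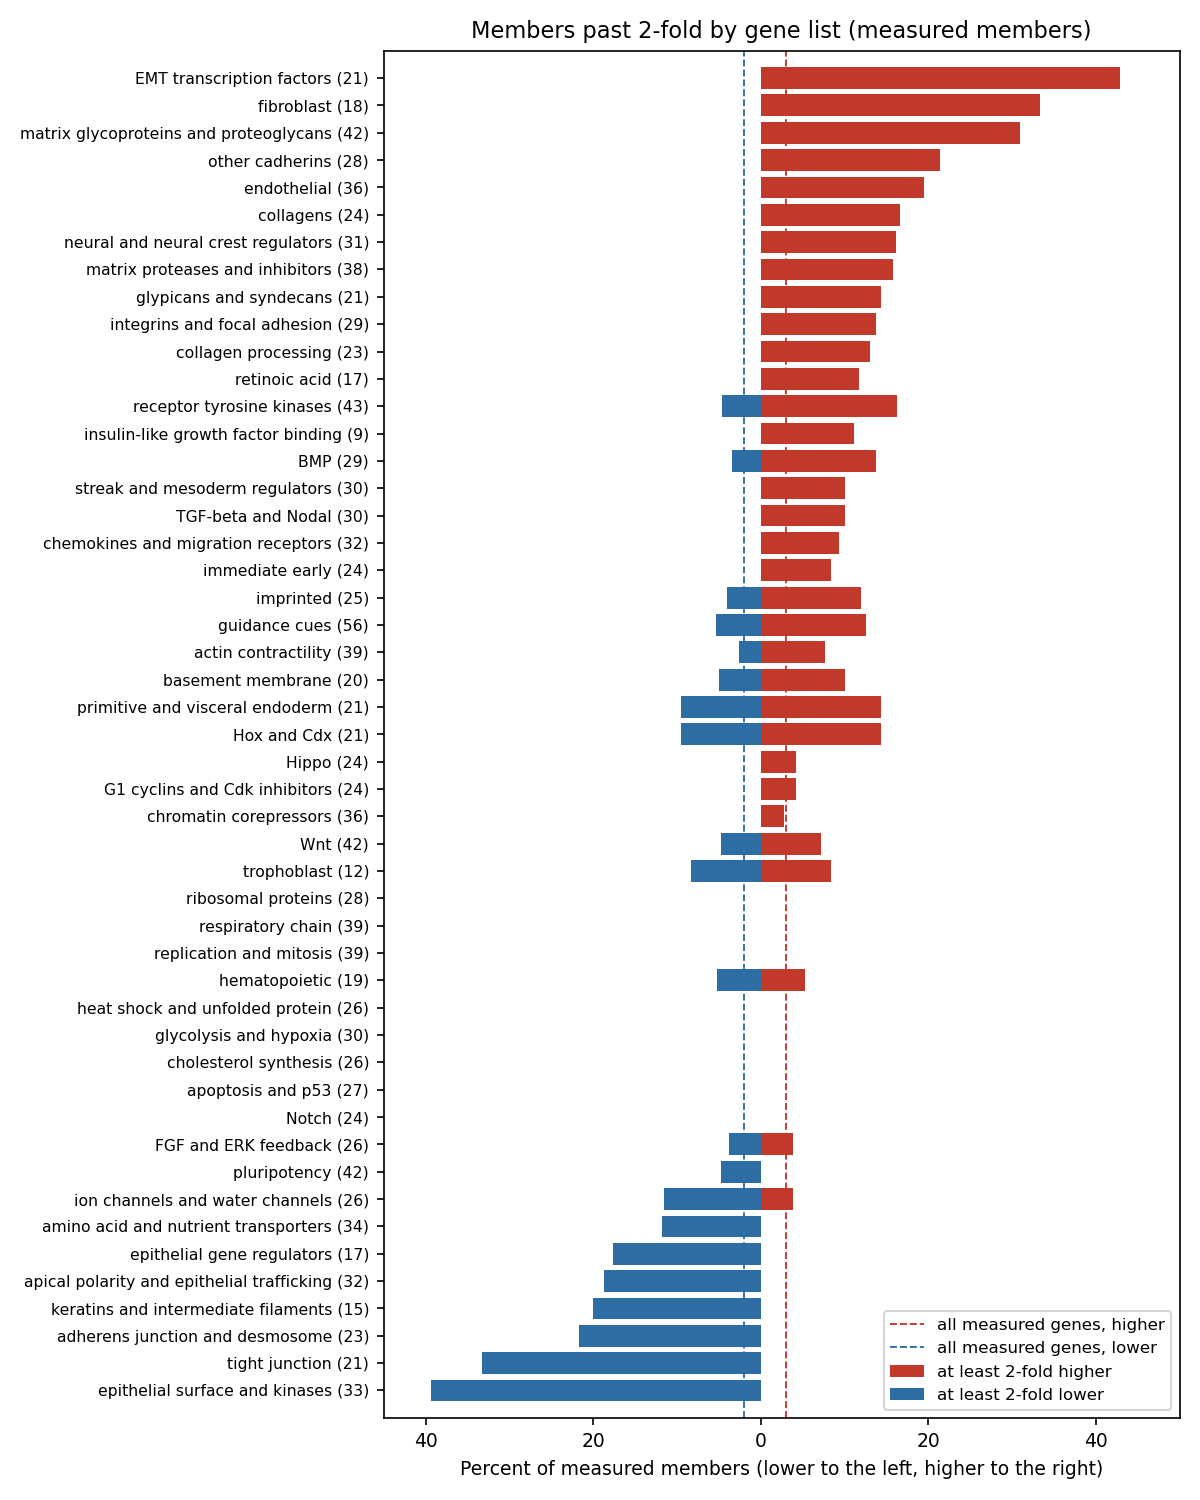
Percent of the measured members of the gene lists described here that were at least 2-fold lower (bars to the left) or higher (bars to the right) in induced Flk1- cells, with the number measured in brackets and dashed lines at the shares over all genes (2.03% and 2.95%). The 6 junction and epithelial lists have bars only to the left, and transcription factors of epithelial-to-mesenchymal transition (9 of 21) and fibroblast markers (6 of 18) have the longest bars to the right.

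Genes of general cell functions were mostly bright, and 150 of the 215 members on the 7 lists below lie in the brightest of the 5 groups, where 0.251% of all genes were higher and 0.394% lower. These lists had 0 members past 2-fold: heat shock (26 genes, median -0.01), apoptosis and p53 (27, 0.03), replication and mitosis (39, 0.05), ribosomal proteins (28, 0.04), the respiratory chain (39, 0.02), glycolysis (30, -0.01) and cholesterol synthesis (26, 0.13). Mki67, a marker of cycling cells, read 2720, 2860 and 3559, and Hspa8 read 13005, 12392 and 13060. Among G1 regulators the 1 higher of 24 was Cdkn1c, the cyclin-dependent kinase inhibitor p57, at 844, 1796 and 2049 (2.11-fold). Of 24 immediate early genes 2 were higher and 0 lower, Jun at 562, 1215 and 2759 (2.14-fold, with 1.23 on its second probe set) and Junb at 318, 721 and 1494 (2.23-fold). Of 36 genes of Polycomb and Snail corepressor complexes 1 was higher, the dim Cbx8, and 0 lower.

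Genes of membrane transport were mostly lower among those past the limit. Of 34 transporters 4 were lower (11.8%) and 0 higher, with a median of -0.25, beside 2.03% lower and 2.95% higher over all genes. Besides Slc40a1 and Slc7a3 these were Slc27a2, a fatty acid transporter, at 1408, 456 and 77.1 (3.04-fold) and Slc35f2 at 447, 195 and 32.5 (2.24-fold). Of 26 ion channel genes 3 were lower and 1 higher, with the potassium channel Kcnk1 at 1290, 543 and 213 (2.35-fold lower, -1.25 on its second probe set). Imprinted genes had 3 higher and 1 lower of 25, among them Peg3 at 712, 1601 and 2633 (2.23-fold higher, 1.67 on the second probe set). The retinoic acid list held 2 higher and 0 lower of 17, including the retinal reductase Dhrs3 at 82.9, 210 and 286 (2.38-fold). Of 32 chemokine and receptor genes 3 were higher and 0 lower.

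The brightest genes past the limit are the least subject to background. The 10 brightest higher were Amot, Cdkn1c, Gpx7, Igdcc4, Igsf3, Lifr, Ms4a4d, Peg3, Pkdcc and Sgk1. Sgk1, a kinase induced by serum and steroids, read 844, 2657 and 4101 (3.12-fold), and Lifr, the receptor of leukemia inhibitory factor, read 632, 1408 and 3464 (2.21-fold). The 10 brightest lower were Cdh1, Epcam, Fgf5, Gldc, Hook1, Krt18, Slc7a3, Spint2, Trh and Tspan13. Gldc, the glycine decarboxylase, read 1775, 659 and 264 (2.67-fold lower), and Tspan13, a tetraspanin, read 3466, 1494 and 527 (2.31-fold lower, -1.35 on its second probe set). Of these 10 lower genes 4 belong to the epithelial lists. Over all genes past the limit, 173 were on one of the 50 lists and 522 on none.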

How the data were processed

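The deposited table holds 1 summarised intensity for each of 45037 Affymetrix probe sets on each of 3 arrays, on a linear scale, per its values. The summary method and scaling that the authors applied were not given in the sources used here. Per the labels' protocols, biotin-labelled cRNA came from 2 ug of total RNA per array. The platform annotation named 1 gene for 34945 probe sets, several for 932 and no gene for 9160, and only those with 1 gene were used by name.

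The brightest single-symbol probe set, by its mean log2 value over the 3 arrays, stood for each gene. The Flk1+ value thus entered the choice of probe set. A gene was measured if 1 of the 3 arrays reached the 40th percentile of all values (25.6). Differences are log2(intensity + 9.53), induced minus untreated, with no further normalisation, and a fixed limit of 2-fold replaced a test. Scripts ran under Python 3.11.15 with numpy 2.4.6 and pandas 2.3.3 and were checked on simulated data. An array's precision is limited by there being 1 per group.

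The comparison, the lists and the tests were chosen with earlier results of these data known. Genes named are the 15 with the largest difference per direction on 2 probe sets, up to 4 per list and direction, the 10 brightest per direction, those crossing the floor, 2 bright members of lists with none past 2-fold, Snai1 and Kdr; others are said to be picked later, or are further list members past 2-fold. The 50 lists name 1658 genes, of which 1549 had a probe set and 1346 were measured; 1 list is not reported here. Promoters came from RefSeq, GRCm38.p6. Alternatives tried were other probe set choices, offsets, floors, folds, centring and quantile normalisation.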

Additional observations from a re-analysis of the deposited data

How the results depend on the processing

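With 1 array per group no replicate could be left out. No paired analysis was possible because each group has 1 array. The main setting gave 412 higher and 283 lower of 13969 genes (59.3% higher). Averaging a gene's probe sets gave 264 and 178. The second brightest probe set gave 176 and 112, but only 6494 genes were measured on it. An offset at the 40th percentile gave 261 and 135, and a 3-fold limit 115 and 32 (78.2% higher). A floor at the 60th percentile gave 168 lower and no offset gave 528 lower. Centring genes on each array's median turned the balance, with 314 higher and 398 lower (44.1% higher), and quantile normalisation gave 374 and 320. The junction and epithelial lists had 37 lower, and 12 lower at 3-fold. On second brightest probe sets, where fewer genes were measured, they had 8 lower and 1 higher. The share of lower genes with the E-box was 46.1%, and 29.5% on second brightest probe sets. On those probe sets 10 named genes had the opposite sign: Amot -0.47, Calcrl -0.049, Erbb3 0.043, Hoxa9 0.078, Igf2 -0.12, Laptm5 -0.39, Sema6d -0.36, Tgfbr3 -0.14, Vezt 0.17 and Zeb2 -0.53. Without an offset Calcrl gave -0.057 and Vezt 0.19. The cause was not tested. The medians of the epithelial surface, tight junction, transition factor and fibroblast lists kept their sign under every alternative run. Dim genes limit the counts: 131 higher and 106 lower genes had 1 of their 2 values under the floor.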

Other observations

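Of 10092 probe sets without exactly 1 gene symbol 4732 were measured, and 113 (2.39%) were past 2-fold upward and 105 (2.22%) downward in induced Flk1- cells. These shares were near those of named genes, and none of these probe sets is named.

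Some of the largest single values belong to genes outside the groups above and were picked after their values were seen. Hprt, a purine salvage enzyme often used as a reference gene, read 352 in untreated, 2301 in induced Flk1- and 1328 in induced Flk1+ cells, 6.4-fold higher between the Flk1- arrays, on its 1 measured probe set. Rbm15b, an RNA-binding protein, had the largest difference downward, 969, 55.7 and 1036 (15-fold lower), but its second probe set differed by 0.17 the other way. Furin, a proprotein convertase, read 597, 183 and 961 (3.15-fold lower). Rbm15b, Furin, Slc9a3 and Slc40a1 were each low on the induced Flk1- array alone.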
